A study of Mus musculus with 12 samples.

Results

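Smooth muscle and pericyte genes were followed in mouse adipose tissue through 10 members, 5 contractile genes (Myh11, Tagln, Cnn1, Acta2 and Des) and 5 pericyte genes (Rgs5, Notch3, Kcnj8, Abcc9 and Cspg4). The members were the rows of the count table whose Ensembl identifier carries one of these 10 symbols, so they make up 10 of 53431 rows. Each of the 10 passed the low-count filter, which left 15968 genes, and was measured in all 12 libraries. Polyadenylated RNA was sequenced from adipose tissue of mice of the mixed C57BL/6 x 129/SvJ background, flash frozen at 6 months of age. There were 4 libraries from wild-type mice without treatment (WT 1 to 4), 4 from untreated mice labelled Bbs2-/- (untreated 1 to 4), and 4 from mice labelled Bbs2-/- that received Genz667161, an inhibitor of glucosylceramide synthase, at 0.033% of feed weight from month 2 to month 6 (treated 1 to 4). The Bbs2 protein is part of the BBSome, which sorts membrane proteins of primary cilia. Neither depot nor sex is stated, nor whether the numbered libraries of a group are different mice, so the p-values rest on a spread among libraries that could be partly technical.

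Smooth muscle cells surround arteries and veins and contract through myosin and actin filaments, whereas pericytes sit on capillaries, within the basement membrane they share with endothelial cells, and are marked by signalling and channel genes. Contractile genes of smooth muscle are switched on together by serum response factor, which binds a DNA element called the CArG box, with myocardin or its relatives as partner. Notch3 is the receptor through which the endothelium's Notch ligands act on both cell types, and it drives target genes through the DNA-binding protein RBPJ.

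Promoters are printed for 3 members, Acta2 because it was the contractile member with the smallest p in both comparisons with the untreated libraries, and Kcnj8 and Abcc9 because they are neighbours on chromosome 6 that encode the paired subunits of 1 channel. Each window runs 5′ to 3′ from 250 bases before to 50 bases after the RefSeq start (GRCm38.p6), and capitals mark matches to TGGGAA, the core bound by RBPJ, or to the CArG box with at most 1 of its 6 inner bases a C or G. The Acta2 window lies at chr19:34255324-34255623 on the minus strand and almost wholly within the gene body that GENCODE annotates, the Kcnj8 window at chr6:142571565-142571864 (minus strand) and the Abcc9 window at chr6:142702225-142702524 (minus strand).
Acta2: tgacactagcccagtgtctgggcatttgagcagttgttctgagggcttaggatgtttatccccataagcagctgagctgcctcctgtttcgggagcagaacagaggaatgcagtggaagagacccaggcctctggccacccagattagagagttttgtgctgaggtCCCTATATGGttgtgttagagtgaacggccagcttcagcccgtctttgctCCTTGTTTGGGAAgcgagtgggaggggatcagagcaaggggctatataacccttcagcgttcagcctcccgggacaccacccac
Kcnj8: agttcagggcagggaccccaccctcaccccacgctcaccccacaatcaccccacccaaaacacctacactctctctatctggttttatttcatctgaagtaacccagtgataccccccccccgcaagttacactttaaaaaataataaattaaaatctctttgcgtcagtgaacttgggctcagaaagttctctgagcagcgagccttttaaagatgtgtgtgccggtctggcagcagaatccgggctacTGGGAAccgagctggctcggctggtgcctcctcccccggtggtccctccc
Abcc9: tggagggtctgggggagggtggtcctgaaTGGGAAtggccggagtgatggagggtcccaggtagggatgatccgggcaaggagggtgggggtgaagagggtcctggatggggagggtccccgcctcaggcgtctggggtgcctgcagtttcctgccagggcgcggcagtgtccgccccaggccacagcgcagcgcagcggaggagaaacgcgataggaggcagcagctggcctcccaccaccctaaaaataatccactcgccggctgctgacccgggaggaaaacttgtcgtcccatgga
A strict CArG box (CC, 6 bases of A or T, then GG) was in 0 of the 8 member windows in the RefSeq table and in 1.63% of all 32851 windows. The looser form, searched for after the strict one was not found, was in Acta2 alone among the 8, as CCCTATATGG 84 bases and CCTTGTTTGG 34 bases before the start, and in 9.98% of all windows. TGGGAA was in 3 of the 8 windows and in 25.6% of all windows on either strand. In Acta2 it overlaps the second CArG-like match, in Abcc9 it begins 221 bases before the start, and in Kcnj8 it begins at the start. A match describes letters only. For Myh11 and Tagln no promoter window was used here.

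Facts about the libraries as a whole bear on the members in a few ways. The libraries held 16317865 to 20224200 estimated counts, and the 10 members had between 13 counts (the lowest library for Cnn1) and 12797.6 counts (the highest for Myh11) in a library. Bbs2 itself was at 12.1 to 12.7 counts per 1e6 (CPM) in libraries labelled WT and at 53.7 to 70.6 CPM in those labelled Bbs2-/-, so the counts go against a loss of the transcript and every direction given here is between libraries as labelled. Which stretch of the transcript those reads came from is not in a gene count. Library WT 1 held RNA of other tissue: Crisp1, a secreted protein of the epididymis, had 19876 counts there and at most 5 in any other library, while the other 11 epididymis genes of the list summed to 15 counts, fewer than their 106.8 counts in WT 4. The muscle genes Ckm (239 counts, at most 3 elsewhere) and Actg2, the enteric and visceral smooth muscle actin (3134 counts, at most 81 elsewhere), were also high in WT 1. Not every skeletal muscle gene was. Of 4 with a mean of at least 1 CPM, WT 1 was the highest WT library for 3, against 34.6% of all such tested genes. Myl1 was at 0.572 times the median of WT 2 to 4. Foxj1, which drives motile cilia in epithelia, was counted 48 times in WT 1, 164 in WT 4, 154 in treated 1 and 140 in treated 3, against at most 2 elsewhere. Results are therefore given with and without WT 1, and where a call changes also without those 4 libraries. In bulk tissue, fewer cells of a type and less RNA per cell cannot be told apart.

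Of the 5 contractile members, 5 fell in untreated libraries labelled Bbs2-/- against WT and 0 rose, with a median log2 fold change of -1.80 against -0.02 over all 15968 genes. Of the 5 pericyte members, 1 rose, 0 fell and 4 did not pass the test, with a median of -0.13. Over all genes, 39.2% passed in either direction in this comparison, 19.6% higher and 19.7% lower. The groups did not overlap for 5 of the 10 members (Myh11, Tagln, Cnn1, Acta2 and Cspg4) and for 36.7% of all genes. Calls are by edgeR's quasi-likelihood test with Benjamini-Hochberg adjustment over all tested genes at 0.05. Without WT 1, when 44.2% of all genes passed (22.6% higher, 21.7% lower), 4 contractile members fell, 2 pericyte members fell (Rgs5 and Kcnj8) and Cspg4 rose. The contractile median was then -1.03 and the pericyte median -0.19. Without WT 1, WT 4, treated 1 and treated 3, when 37.9% passed (19.5% higher, 18.4% lower), Myh11, Cnn1 and Acta2 fell and Cspg4 rose. In the fit without WT 2 and WT 3, the contractile median was -1.99 and the pericyte median 0.04. The names of WT 2 and WT 3 in the sample descriptions lack a mark of merging that the other 10 libraries carry. This difference falls within WT alone, and its part in the comparisons with WT was not tested. With library size alone as the scaling, the median of all genes moved to 0.16 and 69% of the calls were higher, against 49.9% with the main scaling. Other cell types moved in the same comparison: 10 of 10 macrophage genes rose (summed level 706 to 2564 CPM in WT and 5998 to 8633 CPM in untreated libraries) and 9 of 10 mature adipocyte genes fell (25600 to 44986 CPM and 14374 to 17807 CPM), and their part in the members' values was not tested.

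**Figure D1:**
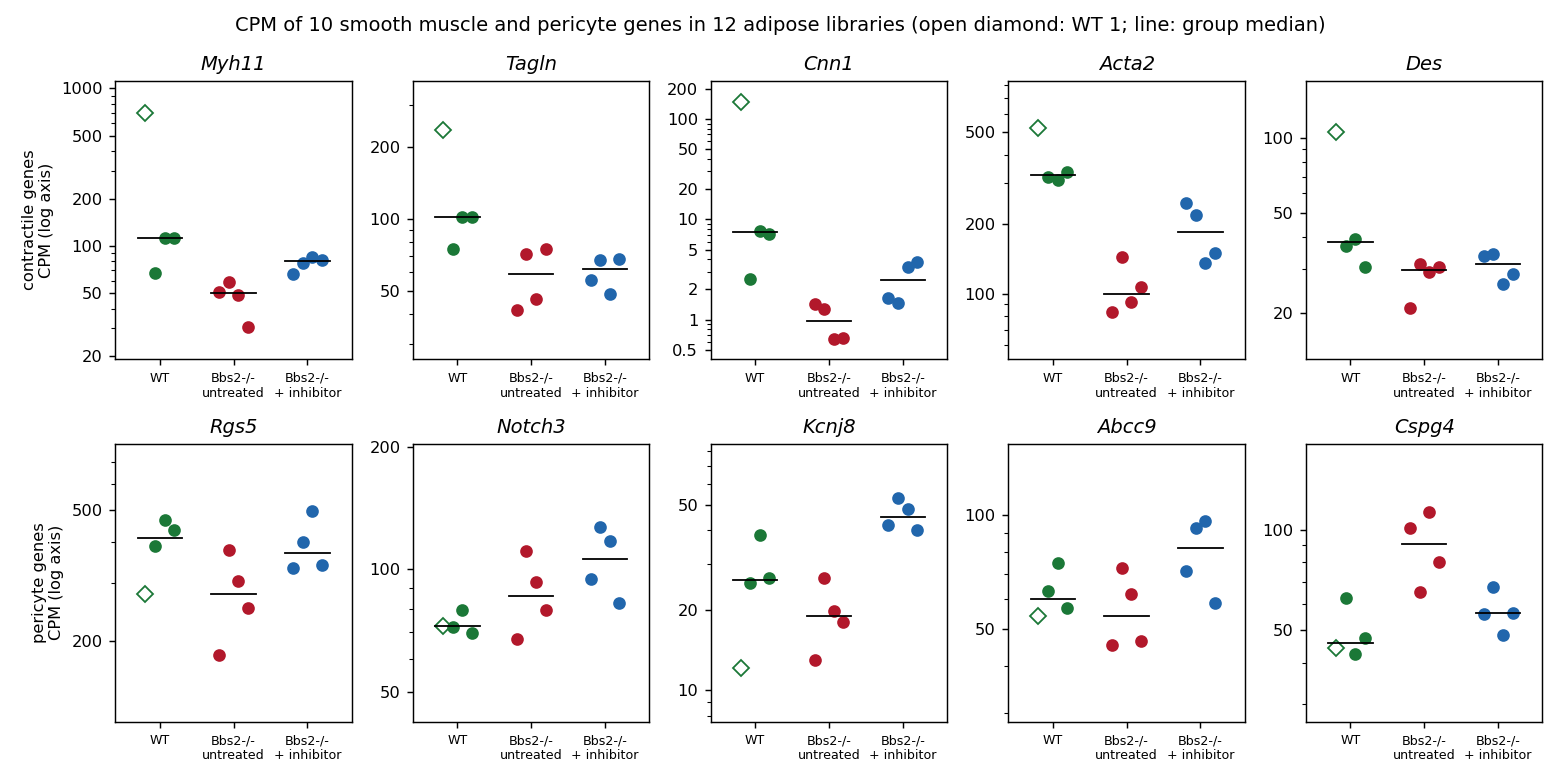
Level of each member in counts per 1e6 (CPM, log axis, a separate scale for each gene) in the 4 WT, 4 untreated and 4 treated libraries, with a point per library, an open diamond for WT 1 and a line at the group median. The upper row shows the contractile genes, where WT 1 is the highest library of 12 in each panel, and the lower row the pericyte genes, where it is not.

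Acta2 (ENSMUSG00000035783.8, chromosome 19, 34241090 to 34255590, minus strand, mm10) encodes the alpha actin of smooth muscle and was the contractile member with the most RNA per length in WT. It was at 519, 319, 309 and 335 CPM in WT 1 to 4, at 83.7, 145, 92.0 and 107 CPM in untreated 1 to 4, and at 248, 219, 136 and 150 CPM in treated 1 to 4. Each WT library lay above every library labelled Bbs2-/-, and treated 3 lay below untreated 2, so the treated and untreated groups overlap. The group levels were 371 ± 99.5 CPM (SD, n = 4) in WT, 107 ± 27.0 in untreated and 188 ± 53.9 in treated libraries. Untreated against WT gave a log2 fold change of -1.80 (SE 0.25, edgeR adjusted p = 0.000283), and -1.59 (adjusted p = 0.00027) without WT 1. For treated against untreated it was 0.82 (SE 0.24, adjusted p = 0.0195), and the call is lost with library size alone as the scaling (0.69, adjusted p = 0.0663) and without any one of untreated 1, untreated 3, treated 1 or treated 2 (adjusted p from 0.0506 to 0.0621). Acta2 shares near-identical coding sequence with the other actin genes, and its estimated counts were not whole numbers in some libraries.

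Myh11 (ENSMUSG00000018830.10, chromosome 16, 14194535 to 14291372, minus strand) encodes the smooth muscle myosin heavy chain, the motor of contraction and a strict marker of mature smooth muscle. It was at 697, 67.4, 112 and 112 CPM in WT 1 to 4, at 51.3, 59.1, 49.0 and 30.7 CPM in untreated 1 to 4, and at 66.3, 77.9, 85.8 and 82.0 CPM in treated 1 to 4. WT 1 stood far above every other library, the 4 untreated libraries were the lowest of the 12, and the treated libraries overlapped WT only through WT 2. The log2 fold change of untreated against WT was -2.38 (SE 0.64, edgeR adjusted p = 0.0134), and -1.03 (SE 0.22, adjusted p = 0.00341) without WT 1, a smaller difference with a smaller error. Treated libraries were at 78.0 ± 8.42 CPM against 47.5 ± 12.03 in untreated ones (SD, n = 4), a log2 fold change of 0.71 (SE 0.62, adjusted p = 0.394) that did not pass although the groups do not overlap. In the fit without WT 1, the same difference of 0.71 had an SE of 0.21 and an adjusted p of 0.0187, since WT 1 enters the spread that the groups share.

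Cnn1 (ENSMUSG00000001349.5, chromosome 9, 22099216 to 22109630, plus strand) encodes calponin 1, an actin-binding protein that restrains the myosin motor. It was at 149 CPM in WT 1 and at 2.57, 7.63 and 7.21 CPM in WT 2 to 4, at 1.44, 1.28, 0.649 and 0.661 CPM in untreated 1 to 4, and at 1.66, 1.47, 3.33 and 3.72 CPM in treated 1 to 4. The 4 untreated libraries were again the lowest, just below treated 2, and WT 1 was the one library above 10 CPM. The log2 fold change of untreated against WT was -5.36 (SE 1.27, edgeR adjusted p = 0.00698), and -2.52 (SE 0.48, adjusted p = 0.00154) without WT 1. For treated against untreated it was 1.33 (SE 1.23, adjusted p = 0.426), and 1.33 (SE 0.45, adjusted p = 0.0355) without WT 1. DESeq2 gave Cnn1 no p-value.

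Tagln (ENSMUSG00000032085.5, chromosome 9, 45929619 to 45936058, minus strand) encodes transgelin, an actin-bundling protein also called SM22 alpha. It was at 237, 75.1, 102 and 102 CPM in WT 1 to 4, at 41.4, 71.3, 46.2 and 74.9 CPM in untreated 1 to 4, and at 55.7, 67.4, 48.7 and 67.8 CPM in treated 1 to 4. Untreated 4 reached the level of WT 2 to within 1 CPM, and the treated libraries lay within the range of the untreated ones. The log2 fold change of untreated against WT was -1.14 (SE 0.33, edgeR adjusted p = 0.0182) and -0.67 (adjusted p = 0.028) without WT 1. It did not pass without WT 1, WT 4, treated 1 and treated 3 (-0.61, adjusted p = 0.0969) or without untreated 1 or untreated 3 (adjusted p = 0.0529 and 0.0572), nor with no low-count filter (adjusted p = 0.0515). Treated and untreated libraries had a log2 fold change of 0.03 (SE 0.33, adjusted p = 0.946). Tagln exons overlap those of Pcsk7 on the opposite strand, which was at 26.6 to 35.1 CPM in the 12 libraries, and the strand setting of the counting is not given in the sources used here. Des, Notch3 and Abcc9 each overlap a predicted or unnamed gene on the opposite strand.

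Des (ENSMUSG00000026208.9, chromosome 1, 75360329 to 75368579, plus strand) encodes desmin, an intermediate filament protein of smooth, skeletal and heart muscle that pericytes also make. It was at 105, 37.0, 39.5 and 30.6 CPM in WT 1 to 4, at 20.9, 31.2, 29.0 and 30.4 CPM in untreated 1 to 4, and at 33.8, 34.4, 26.1 and 28.6 CPM in treated 1 to 4. Apart from WT 1, the 3 groups lay close together, and untreated 2 was above WT 4. The log2 fold change of untreated against WT was -0.93 (SE 0.34, edgeR adjusted p = 0.0468). It was -0.36 (SE 0.15, adjusted p = 0.0809) without WT 1, and it also missed the threshold in a fit of only the 2 groups (adjusted p = 0.0852), with library size alone (-0.78, adjusted p = 0.114) and with the log2 FPKM values (adjusted p = 0.0657). Skeletal muscle genes, of which 4 of 12 had a mean of at least 1 CPM, summed to 58.1 to 113 CPM in WT, 26.3 to 34.7 CPM in untreated and 44.9 to 57.1 CPM in treated libraries. Acta1 and Myl1 led that sum, with means of 20.8 and 30.3 CPM over the 12 libraries. Of the 8 that were tested, 2 rose and 3 fell in untreated libraries against WT, where 19.6% and 19.7% of all genes did. Cardiac genes summed to at most 7.03 CPM. The part of either list in the Des values was not tested. With treated against untreated the value was 0.14 (SE 0.34, adjusted p = 0.777).

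How far WT 1 stood from the other WT libraries was measured gene by gene as its ratio to the median of WT 2 to 4. WT 1 was the highest WT library for 5 of 5 contractile members, at 6.20 times that median for Myh11, 2.33 for Tagln, 20.7 for Cnn1, 1.63 for Acta2 and 2.85 for Des. It was the highest for 0 of 5 pericyte members, at 0.636 for Rgs5, 1.01 for Notch3, 0.458 for Kcnj8, 0.863 for Abcc9 and 0.929 for Cspg4. Among 19 other contractile genes with a mean of at least 1 CPM it was the highest for 14, with a median ratio of 1.85 and the largest, 36.2, for Actg2. For 12 endothelial genes it was the highest for 0, with a median ratio of 0.636, and over all such tested genes it was the highest for 34.6%, with a median of 0.993. The excess was not limited to muscle genes: WT 1 was the highest WT library for 9 of 10 macrophage genes (median ratio 2.55) and 7 of 10 fibroblast genes (1.73), and for 0 of 10 mature adipocyte genes (0.668). Myocd, which encodes the smooth muscle coactivator myocardin, had 69.1 counts in WT 1 and at most 7 in any other library.

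**Figure D2:**
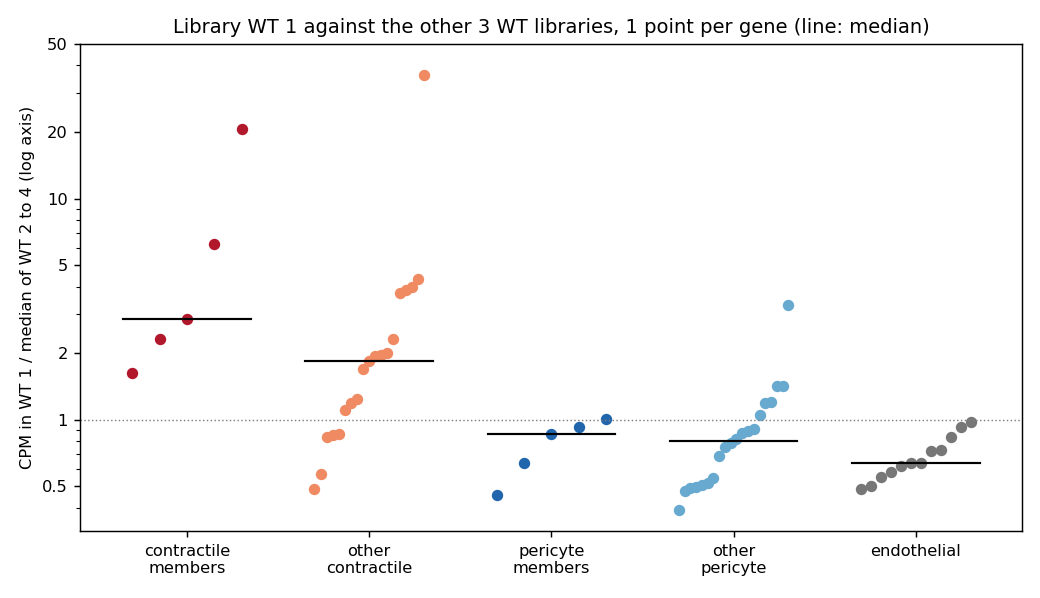
Ratio of the CPM in library WT 1 to the median of WT 2 to 4 (log axis), with a point per gene with a mean of at least 1 CPM, a line at each list's median and a dotted line at 1. The 5 contractile members lie between 1.63 and 20.7, and the 5 pericyte members between 0.458 and 1.01.

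Rgs5 (ENSMUSG00000026678.10, chromosome 1, 169655501 to 169695813, plus strand), a regulator of G protein signalling and the most used pericyte marker, led the pericyte members in RNA per length. It was at 277, 387, 466 and 436 CPM in WT 1 to 4, at 182, 378, 303 and 252 CPM in untreated 1 to 4, and at 332, 400, 496 and 339 CPM in treated 1 to 4. WT 1 was the lowest WT library, 3 of 4 untreated libraries lay below every treated one, and all pairs of groups overlap. The log2 fold change of untreated against WT was -0.49 (SE 0.23, edgeR adjusted p = 0.104) and -0.62 (SE 0.22, adjusted p = 0.0385) without WT 1. For treated against untreated it was 0.49 (SE 0.23, adjusted p = 0.107).

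Kcnj8 and Abcc9 encode the pore and the sulfonylurea receptor subunit of an ATP-sensitive potassium channel of vessel walls, and their gene bodies lie 16247 bases apart on chromosome 6. Kcnj8 (ENSMUSG00000030247.9, 142564837 to 142571614, minus strand) was at 12.1, 25.3, 38.3 and 26.5 CPM in WT 1 to 4, at 12.99, 26.5, 19.9 and 18.1 CPM in untreated 1 to 4, and at 41.8, 53.1, 48.2 and 40.0 CPM in treated 1 to 4. Every treated library was above every WT and untreated library, and untreated libraries lay within the WT range. Treated libraries were at 45.8 ± 6.03 CPM against 19.4 ± 5.57 in untreated ones (SD, n = 4), a log2 fold change of 1.24 (SE 0.30, edgeR adjusted p = 0.00684) that held under each alternative and each library left out, at 1.09 to 1.41 (adjusted p from 0.000179 to 0.0237). For untreated against WT it was -0.40 (SE 0.29, adjusted p = 0.308), -0.63 (adjusted p = 0.0371) without WT 1, and 0.02 without WT 2 and WT 3, whose library names in the sample descriptions lack the mark of merging that the other 10 carry. Of 12 endothelial genes, 6 rose and 0 fell in treated against untreated libraries, where 18.5% of all genes rose and 18.8% fell. Their summed levels were 1448 to 2051 CPM against 836 to 1394 CPM (1007 to 1622 CPM in WT). The part of the endothelial genes in the Kcnj8 result was not tested.

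Abcc9 (ENSMUSG00000030249.15, chromosome 6, 142587862 to 142702315, minus strand) was at 54.3, 62.9, 74.8 and 56.9 CPM in WT 1 to 4, at 45.5, 72.7, 62.0 and 46.5 CPM in untreated 1 to 4, and at 71.3, 92.6, 96.7 and 58.7 CPM in treated 1 to 4. The 3 groups overlap, with treated 4 at the level of the WT and untreated libraries. Treated against untreated gave a log2 fold change of 0.49 (SE 0.19, edgeR adjusted p = 0.0585), where DESeq2 gave an adjusted p of 0.0363. Untreated against WT gave -0.13 (SE 0.19, adjusted p = 0.609), and 0.06 with library size alone. The ratio of Kcnj8 to Abcc9 CPM was 0.286 to 0.390 in untreated libraries and 0.499 to 0.681 in treated ones, without overlap, and 0.224 to 0.512 in WT.

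Notch3 (ENSMUSG00000038146.7, chromosome 17, 32120820 to 32166852, minus strand), the Notch receptor of smooth muscle cells and pericytes, was at 72.6, 72.1, 79.4 and 69.6 CPM in WT 1 to 4, at 67.4, 111, 93.1 and 79.4 CPM in untreated 1 to 4, and at 94.8, 128, 118 and 82.6 CPM in treated 1 to 4. The WT libraries were close together, and the treated libraries all lay above them. Untreated against WT gave a log2 fold change of 0.26 (SE 0.16, edgeR adjusted p = 0.231), treated against untreated one of 0.27 (SE 0.16, adjusted p = 0.209), and the values without WT 1 were 0.25 and 0.27.

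Cspg4 (ENSMUSG00000032911.6, chromosome 9, 56865033 to 56899870, plus strand) encodes the proteoglycan NG2, found on pericytes and on some stromal and glial precursor cells. It was at 44.2, 62.6, 42.6 and 47.6 CPM in WT 1 to 4, at 101, 65.3, 113 and 80.3 CPM in untreated 1 to 4, and at 56.2, 67.4, 48.6 and 56.5 CPM in treated 1 to 4. It was higher in every untreated library than in any WT library, the reverse of the contractile order, and treated 2 lay above untreated 2. Untreated against WT gave a log2 fold change of 0.87 (SE 0.18, edgeR adjusted p = 0.00264), with adjusted p at most 0.04 under each alternative. For treated against untreated it was -0.66 (SE 0.18, adjusted p = 0.0127), and -0.52 (adjusted p = 0.133) without WT 1, WT 4, treated 1 and treated 3. Fibroblast genes moved with it: their summed level was 2770 to 5345 CPM in WT, 6000 to 6942 CPM in untreated and 2834 to 3486 CPM in treated libraries, and their part in the Cspg4 result was not tested. The ratio of Cspg4 to Notch3 CPM was 0.536 to 0.868 in WT, 0.589 to 1.501 in untreated and 0.412 to 0.685 in treated libraries.

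**Figure D3:**
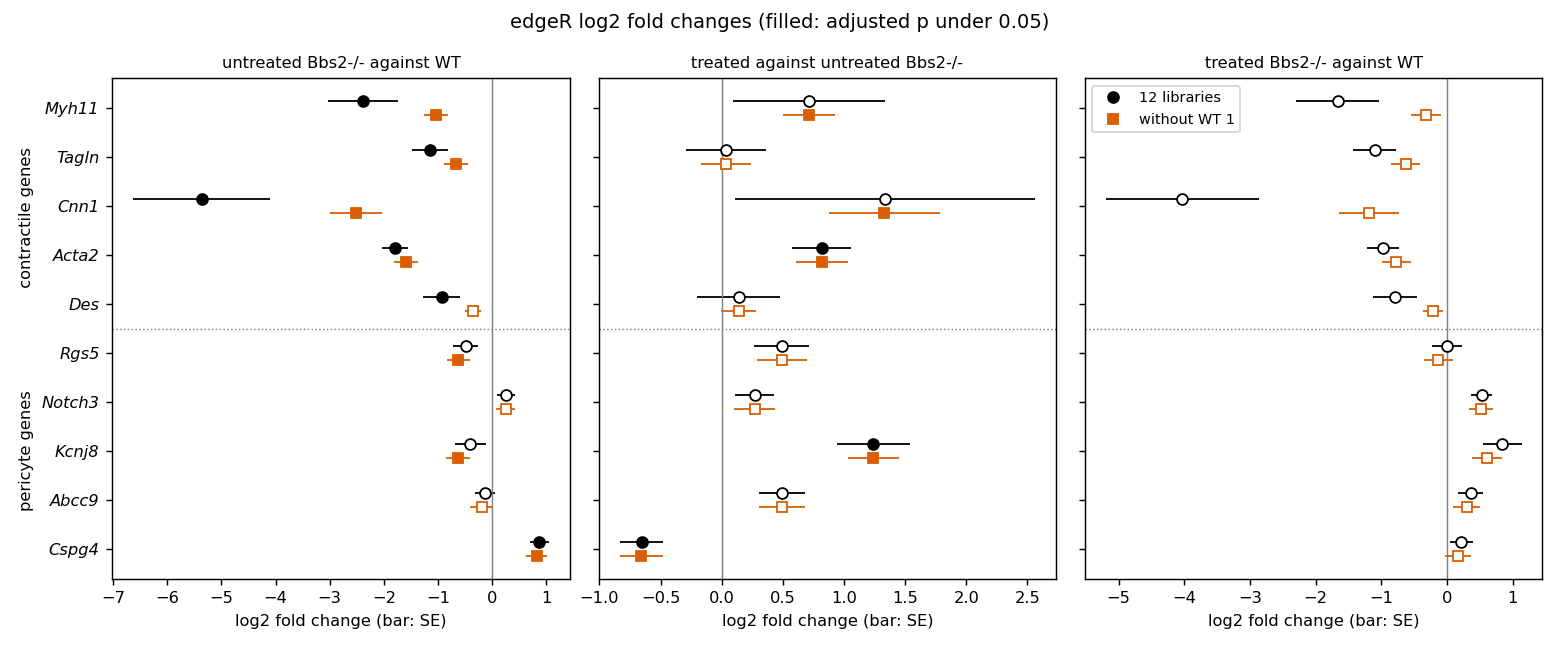
Log2 fold change of each member by edgeR in the 3 comparisons (bar: SE), with black circles for 12 libraries, orange squares for the fit without WT 1, and filled symbols for an adjusted p under 0.05. The left panel shows the contractile members below 0 and Cspg4 above it at 0.87, and the middle panel shows Kcnj8 at 1.24.

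With treated against untreated libraries, 1 contractile member rose (Acta2), 1 pericyte member rose (Kcnj8), 1 fell (Cspg4) and 7 of the 10 did not pass, while 37.2% of all genes passed, 18.5% higher and 18.8% lower. The median log2 fold change was 0.71 for contractile and 0.49 for pericyte members, against 0.03 over all genes. Groups did not overlap for 3 of the 10 (Myh11, Cnn1 and Kcnj8) and for 39.7% of all genes. Without WT 1, 5 of the 10 passed, with Myh11 and Cnn1 added, and 40.5% of all genes did (20% higher, 20.5% lower). Without WT 1, WT 4, treated 1 and treated 3, 2 of the 10 passed (Acta2 and Kcnj8), as did 32.8% of all genes. With library size alone 35.5% of the calls were higher, against 49.6%, and 2 of the 10 members passed. The untreated libraries serve in this comparison and in that with WT, so a low or high untreated value pulls both in opposite directions.

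Between treated libraries and WT, 0 of the 10 members passed by edgeR, 7 had an unadjusted p under 0.05, and DESeq2 called 2, Tagln (-1.10, adjusted p = 0.0367) and Acta2 (-0.97, adjusted p = 0.00919). Over all genes 0.257% passed by edgeR (0.175% higher and 0.0814% lower, so 68.3% of these calls were higher, 79.6% with library size alone), and 10.6% had an unadjusted p under 0.05. The 5 contractile members had values of -0.79 (Des) to -4.03 (Cnn1), and the 5 pericyte members 0.00 (Rgs5) to 0.84 (Kcnj8). The groups did not overlap for Tagln and Acta2, lower in treated libraries, and for Notch3 and Kcnj8, higher, which is 4 of 10 against 4.89% of all genes (2.68% higher, 2.21% lower). Without WT 1 the contractile values shrank to between -0.22 (Des) and -1.19 (Cnn1), Myh11 to -0.32 (edgeR adjusted p = 0.529), and 0 passed among the members against 0.301% of all genes. Without WT 1, WT 4, treated 1 and treated 3, 0 members and 0.0123% of all genes passed.

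Summed over the 5 members, contractile CPM was 1707 in WT 1 and 501, 570 and 587 in WT 2 to 4, then 199, 307, 217 and 244 in untreated 1 to 4, and 406, 400, 300.01 and 332 in treated 1 to 4. Each untreated library lay below each WT library, and treated 3 lay just under untreated 2. The pericyte sum was 460, 610, 701 and 636 CPM in WT 1 to 4, 409, 654, 592 and 477 CPM in untreated 1 to 4, and 596, 741, 807 and 577 CPM in treated 1 to 4, so the 3 groups overlap. Against the mean of WT 2 to 4, untreated libraries held 43.7% of the contractile and 82.1% of the pericyte CPM, and treated libraries 65.0% and 105%. Against all 4 WT libraries, the untreated shares were 28.7% and 88.5%.

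The ratio of contractile to pericyte CPM was 3.71 in WT 1 and 0.822, 0.813 and 0.923 in WT 2 to 4. It was 0.459 ± 0.0637 (SD, n = 4) in untreated and 0.542 ± 0.128 in treated libraries, whose ranges of 0.367 to 0.512 and 0.372 to 0.680 overlap. All 8 libraries labelled Bbs2-/- thus had a ratio under that of each WT library. With Des counted among the pericyte members instead, the untreated ratio was 0.303 to 0.421 and the WT ratio at least 0.717. These ratios are descriptions of sums that Acta2 and Rgs5 lead, except that Myh11 leads the contractile sum in WT 1.

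**Figure D4:**
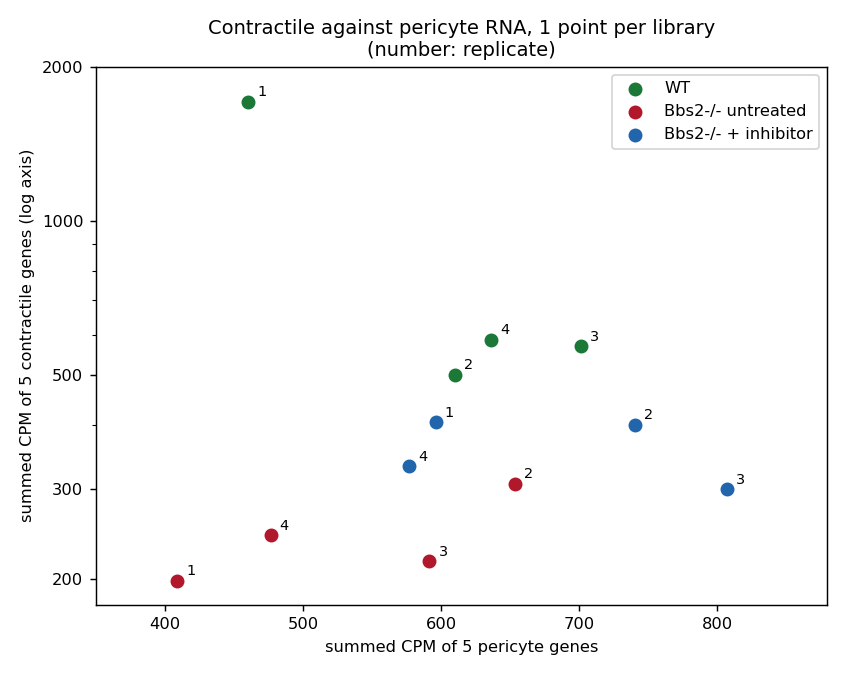
Summed CPM of the 5 contractile members (log axis) against that of the 5 pericyte members, with a point per library and its replicate number beside it. WT 1 lies alone at 1707 contractile CPM, and the other WT libraries lie at 501 to 587, above the treated and the untreated libraries.

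Per gene length, on the deposited log2 FPKM scale, the order of the members' mean levels in WT was Acta2 (7.82), Rgs5 (6.75), Tagln (6.36), Myh11 (4.80), Des (4.18), Kcnj8 (3.55), Notch3 (3.47), Abcc9 (3.38), Cnn1 (3.13) and Cspg4 (2.94). In untreated libraries Rgs5 (6.17) stood before Acta2 (5.97), Cspg4 followed Tagln at 3.64, and Myh11 (3.08) and Cnn1 (0.57) came last. The lowest value of this scale is 0 in every library, so differences among low levels such as those of Cnn1 may be compressed on it. In treated libraries the order began with Acta2 (6.82) and Rgs5 (6.73) again, and Kcnj8 followed Tagln at 4.44. Without WT 1 the WT order was Acta2 (7.65), Rgs5 (6.89), Tagln (6.02), Myh11 (4.10), Kcnj8 (3.85), Des (3.81), Notch3 (3.48), Abcc9 (3.43), Cspg4 (2.97) and Cnn1 (2.05), so Cnn1 moved to the last place and Des behind Kcnj8. Neighbours in the order often lay within their spread: Kcnj8, Notch3 and Abcc9 in WT differed by less than the SD of Kcnj8, and so did Acta2 and Rgs5 in the untreated libraries relative to the SD of either.

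Among 20 other contractile genes, 10 fell and 0 rose in untreated libraries against WT (median log2 fold change -0.87), where 19.7% of all genes fell and 19.6% rose. Without WT 1, 10 fell and 1 rose (Pgm5, 0.92, edgeR adjusted p = 0.0131), where 21.7% of all genes fell and 22.6% rose. Kcnmb1, the smooth muscle subunit of a calcium-activated potassium channel (-4.15, SE 0.57, edgeR adjusted p = 0.000273), Hspb6, a small heat shock protein of muscle (-0.92, adjusted p = 0.000731), and Myl9, a myosin light chain (-1.48, adjusted p = 0.00154), had the smallest p. Kcnmb1 lay near the floor, with a mean of 0.93 CPM over the 12 libraries and 1 to 48 counts in a library, so its fold changes rest on low counts. In treated against untreated libraries 6 of the 20 rose and 0 fell (median 0.55; 18.5% and 18.8% of all genes), led by Kcnmb1 (2.99, adjusted p = 0.0018), Casq2, a calcium store protein (1.90, adjusted p = 0.00267), and Pln, which restrains the calcium pump (2.46, adjusted p = 0.00855). Pln too was low, with a mean of 1.14 CPM over the 12 libraries. Without WT 1, 9 of the 20 rose and 2 fell (Pgm5, -1.11, edgeR adjusted p = 0.00318, and Tpm1, a tropomyosin, -0.27, adjusted p = 0.04), where 20% of all genes rose and 20.5% fell. Pgm5, chosen after its values were seen, is a muscle protein of cell adhesion sites. None of the 20 passed by edgeR in treated libraries against WT, where Hspb6 (-0.58), Actg2 (-5.26) and Tpm1 (-0.70) had the smallest p. Without WT 1 these were -0.63, -1.52 and -0.38, so the Actg2 value rests largely on that library and the Tpm1 value in part.

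Of 9 tested genes on the list of contractile gene regulators, 4 rose and 1 fell in untreated libraries, and 1 rose and 4 fell in treated against untreated ones, where 39.2% and 37.2% of all genes passed. Cnn2, a calponin rather than a regulator, was on the list and among both sets of 4 (0.53 and -0.42, edgeR adjusted p = 0.00667 and 0.0224). The counts of rises and falls were the same without WT 1, where 44.2% and 40.5% of all genes passed. Mrtfa, a myocardin-related coactivator of serum response factor, was 0.92 (SE 0.12, edgeR adjusted p = 0.000217) higher on the log2 scale and then fell by 0.82 with treatment (adjusted p = 0.0004). Tgfb1, a growth factor that macrophages also make, had values of 1.04 (adjusted p = 0.00108) and -0.88 (adjusted p = 0.00283). Foxo4, a forkhead factor, had -0.53 (adjusted p = 0.00244) and 0.36 (adjusted p = 0.0194). The macrophage genes, at 701 to 1805 CPM in treated libraries, moved with Tgfb1 and Mrtfa, and their part in these values was not tested.

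Of 20 other pericyte genes, 5 rose and 4 fell in untreated libraries against WT (median -0.07), and 6 rose and 4 fell in treated against untreated ones (median 0.41), so 9 and then 10 of 20 passed, against 39.2% and 37.2% of all genes. Without WT 1, 4 rose and 7 fell (median -0.23), then 8 rose and 4 fell. In that fit, 22.6% of all genes rose and 21.7% fell in the first comparison, and 20% and 20.5% in the second. Mcam, the adhesion molecule CD146 of pericytes and endothelium (-1.19, SE 0.13, edgeR adjusted p = 0.000103), and Art3 (-1.61, adjusted p = 0.00182) fell, and Anpep, an aminopeptidase also made by myeloid cells and fibroblasts, rose (2.30, adjusted p = 0.00182). With treatment Mcam (1.37) and Art3 (1.76) rose and Anpep fell by 2.93, with edgeR adjusted p of 5.37e-05, 0.00115 and 0.00056. Of 16 Notch and PDGF signalling genes, 4 rose and 3 fell, then 7 rose and 2 fell. Without WT 1 it was 3 and 3, then 7 and 2, against the shares without WT 1 given above. The first count, 7 of 16, is near the share of all genes. In the second comparison, 18.5% of all genes rose and 18.8% fell. Rbpj, the partner of cleaved Notch, was at 1.21 (edgeR adjusted p = 0.000563) and then -1.35 (adjusted p = 0.000324). The macrophage genes moved in the same directions (medians 2.74 and then -2.78), and their part in the Rbpj values was not tested. Of the 7 that rose with treatment without WT 1, Pdgfc had the smallest p (0.87, edgeR adjusted p = 0.000372). In untreated libraries against WT, the Notch target Hey2 was at -0.91 (adjusted p = 0.00858) and the PDGF gene Pdgfb at 0.64 (adjusted p = 0.0101).

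The genes whose profile over the 12 libraries was nearest to that of Myh11, by the root mean square difference of gene-centred log2 CPM among 12129 genes, were Tpm2 (0.37), Lmod1 (0.389), Synm (0.406), Jph2 (0.439), P2rx1 (0.471) and Pdlim3 (0.525), against a root mean square of 1.05 for Myh11 itself. Without WT 1 they were 6 others, Osbpl1a, Btnl9, Pde4c, Tubb4a, Itga8 and Nexn (0.206 to 0.233, against 0.523). For Rgs5 the nearest were Clca2 (0.15), Hid1, Ablim3, Adgrl4, Pgf and Greb1l (0.185), against 0.394. Clca2, Hid1 and Adgrl4 were also among the 6 nearest without WT 1. These likenesses describe libraries that share their group, depth and tissue makeup.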

How the data were processed

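RNA was isolated with TRIzol and RNeasy and sequenced from Illumina TruSeq Stranded mRNA libraries, per the labels' protocols. The authors deposited a table of estimated counts per gene, without scaling, and a table of log2 FPKM values for 18810 genes, set to a common upper quartile of 3.96. Per the submitters' processing notes, the build was mm10. What aligned and counted the reads, and with which strand setting, is not given in the sources used here. Symbols and positions came from GENCODE M21 (52207 of 53431 identifiers matched), promoter windows from RefSeq for 8 of the 10 members.

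Estimated counts were rounded, then fitted in edgeR 4.0.16 (R 4.3.3; TMM, filterByExpr, robust quasi-likelihood, 12 libraries in 1 fit with group as the only term), adjusted by Benjamini-Hochberg over 15968 genes. CPM uses the TMM-scaled library size. The procedure was tested on simulated data with known changes. For untreated against WT it recovered 25.4% of 1.5-fold, 64.2% of 2-fold and 92.4% of 4-fold changes. For treated against untreated the shares were 17.9%, 47.8% and 93.9%. Far fewer genes were changed there than were called in the comparisons with untreated libraries, so these shares may differ from those in the real data. Alternatives were DESeq2 1.42.0, its size factors, library size alone, other filters, fits of 2 groups, limma 3.58.1 on log2 FPKM, a non-robust fit, a replicate block, and fits with libraries left out. No library repeated another of its group within sampling noise (chi-square 17.8 to 84.9 per degree of freedom over 18 pairs).

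The members and the lists were chosen with earlier results of these data known. Named genes are the members, the 6 genes most like Myh11 and Rgs5, 3 genes of the smallest p in each pathway list, and markers of other tissues. Ckm, Myl1, Myocd, Actg2, Pgm5, Pcsk7, Krt19, Cnn2 and Pdgfc were named in addition after their values were seen. Lists were described by counts and medians, with no test.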

Additional observations from a re-analysis of the deposited data

Results flagged for a closer look

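In WT, a single library lay far from the other 3 for each of the 5 contractile members and for their sum, and in each case it was WT 1. Myh11 was at 697 CPM there and at 112 CPM in the next library, Tagln at 237 and 102, Cnn1 at 149 and 7.63, Acta2 at 519 and 335, and Des at 105 and 39.5. The contractile sum was 1707 CPM against 587 CPM. The gap to the next library was 0.836 (Tagln) to 0.965 (Cnn1) of the group's range, above the limit of 0.829 for 4 libraries. For the 5 pericyte members, in WT or in the untreated or treated libraries, no library stood out in this way. For independent, normally distributed values chance gives about 1 such library in 20 groups, and 36 groups were tested. These groups share libraries, and the sums are made of the members, so the flags are not independent. That WT 1 carries other tissue was known beforehand.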

How the results depend on the processing

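The number of members called was 6 for untreated libraries against WT (4 to 7 when 1 library was left out), and 3 for treated against untreated (2 to 5 when 1 was left out, 5 with only the 2 groups and 5 with the replicate block). For treated libraries against WT it was 0, and 2 by DESeq2, which gave Cnn1 no p-value. Over all genes, 6263 were called for untreated against WT, 3417 without WT 2 and WT 3, and 4951 to 7212 with 1 library left out. For treated against untreated, 5947 were called, and 4614 to 6611 with 1 left out. For treated against WT, 41 were called, 282 by DESeq2, 2 with only the 2 groups, 9 with the replicate block, 2 without WT 1, WT 4, treated 1 and treated 3, 1 without WT 2 and WT 3, and 3 to 49 with 1 left out. With 1 library left out, the highest counts, 7212, 6611 and 49, were each without WT 1. The cause of these shifts was not tested. No called member changed sign under any alternative run.

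Replicate numbers were not taken to pair the libraries, since not every same-numbered pair had a correlation over 0.1: same-numbered libraries of different groups had correlations of -0.149 to 0.308 in their deviations, with 4 of 12 pairs over 0.1, and 5 of 12 libraries deviated most like one of the same number. Between untreated and treated libraries alone, the 4 pairs had 0.308, 0.116, 0.144 and 0.0999. With the replicate block, Rgs5 passed in both comparisons with untreated libraries (-0.51, adjusted p = 0.0249, and 0.52, adjusted p = 0.0241), and so did Abcc9 with treatment (0.49, adjusted p = 0.00712), while Des did not pass (adjusted p = 0.108), all by edgeR. Cnn1, with 13 counts in its lowest library, is the member that depth limits most.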

Other observations

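Outside the vessel wall, the fibroblast list (Pdgfra, Dcn, collagens and others) had 6 of 10 genes higher in untreated libraries against WT and 7 of 10 lower in treated against untreated ones, with 0 in the other direction. The mature adipocyte list had 9 of 10 lower and then 9 of 10 higher. Over all genes, 19.6% were higher and 19.7% lower in the first comparison, and 18.5% and 18.8% in the second. Endothelial genes had 1 of 12 higher and 0 lower in untreated libraries against WT. Without WT 1 they had 1 higher and 4 lower, where 22.6% and 21.7% of all genes were. Pecam1, the endothelial adhesion molecule, was at 162 to 234 CPM in WT, 155 to 265 CPM in untreated and 194 to 311 CPM in treated libraries, which overlap. Acta1, the skeletal muscle actin, was at 17.8 to 58.5 CPM in WT and at 7.19 to 16.5 CPM in the 8 libraries labelled Bbs2-/-. Msln, a mesothelium gene, was at 3.43 CPM in WT 1 and 10.1 to 24.7 CPM in WT 2 to 4. WT 1 was the highest WT library for 1 of the 6 genes of the mesothelium list, against 34.6% of all tested genes with a mean of at least 1 CPM. The median ratio of WT 1 to the median of WT 2 to 4 was 0.213 for that list. The gene that was highest was Krt19, at 34.9 CPM in WT 1 and at most 9.52 CPM in the other 11 libraries.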
